A study of Mus musculus with 9 samples.

Results

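The mRNAs of 10 genes were followed here: Fmr1, its paralogs Fxr1 and Fxr2, and 7 genes whose proteins bind or work with the protein of Fmr1 (Cyfip1, Cyfip2, Nufip1, Nufip2, Caprin1, Mov10 and Top3b). They were chosen by gene symbol, as every row of the deposited table that carries 1 of these names, which gave 94 of 140658 transcripts and 10 of 54325 gene symbols. Of the 94 transcripts, 74 had a read in at least 1 library.

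All libraries came from Neuro-2A (N2A) cells, a mouse neuroblastoma line, with no transfection or genetic change given in the labels. Every culture received 200 nM okadaic acid, a protein phosphatase inhibitor, for 2 h, so no untreated cells stand beside these values. The groups were RNA taken without IP (input, 3 libraries), RNA recovered with rabbit IgG (rIgG IP, 3 libraries) and RNA recovered with an antibody to phosphorylated UPF1 (p-UPF1 IP, 3 libraries). RNA was cut with RNase I, and fragments of 25 to 50 nt were sequenced, so a count is a short footprint and not a whole mRNA.

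FMRP, the product of Fmr1, binds mRNAs and ribosomes and holds back translation; its loss causes fragile X syndrome. UPF1 is the central RNA helicase of nonsense-mediated mRNA decay (NMD), the pathway that removes mRNAs whose translation stops early as well as a part of normal mRNAs, and its phosphorylated form is the one engaged in decay. The comparison of p-UPF1 IP with input asks which mRNAs p-UPF1 carries beyond their abundance, and the rIgG IP measures what the beads and a neutral antibody recover.

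Total counts were 25184464 to 29857955 in input, 5312526 to 6246110 in the p-UPF1 IP and 79010 to 474491 in the rIgG IP. The 10 genes held 3951 to 4597 counts in an input library, 628 to 833 in a p-UPF1 IP library and only 66, 30 and 7 in the rIgG IP libraries, where 3 counts already correspond to 6.32 to 38.0 CPM (counts scaled to a common library total). The 10 most-counted transcripts of the whole table took 76.8% to 82.3% of each library. Of 10 neuroblastoma and neuron markers, 9 were detected in input, with a summed level of 152 to 173 CPM of the library total and Nefl at 0; of 3 astrocyte markers Aqp4 and Slc1a3 had no read and Gfap at most 0.0397 CPM. Microglia markers summed to at most 0.115 CPM in input, and fibroblast markers to 1.87 to 2.11 CPM in input and 2.49 to 2.82 CPM in the p-UPF1 IP. The summed level of 3 oligodendrocyte markers was 1.37 to 2.04 CPM in input and 9.93 to 13.1 CPM in the p-UPF1 IP, with Mog at 0 in the latter; the part of this in the results was not tested.

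Caprin1, Fxr1 and Nufip2 were the most abundant of the 10 mRNAs in input. Per kilobase of the transcripts to which reads were assigned, Caprin1 stood at 25.4 ± 1.93 CPM per kb (SD, n = 3 here and below), Fxr1 at 14.8 ± 0.498 and Nufip2 at 8.02 ± 0.278, and these 3 did not overlap. Cyfip1 followed at 3.63 ± 0.0782 CPM per kb and Fxr2 at 2.77 ± 1.05, which overlapped in their libraries. Cyfip2 (1.99 ± 0.0477), Top3b (1.88 ± 0.522) and Fmr1 (1.56 ± 0.195 CPM per kb) formed a stretch in which each overlapped its neighbour. Mov10 at 1.03 ± 0.0722 and Nufip1 at 0.746 ± 0.143 CPM per kb were the lowest. These levels rest on how reads were shared among transcripts, which is described at the end of this section.

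In the p-UPF1 IP, Mov10, Fxr2 and Top3b mRNAs were higher than in input and 6 of the other 7 were lower. Of all 16919 genes tested, 26.3% were called higher and 35.7% lower by edgeR's quasi-likelihood test (Benjamini-Hochberg adjusted p under 0.05). The 3 higher of 10 genes lay near the share of the whole table and the 6 lower above it, a difference that was not tested. With a log2 fold change above 1 or below -1 required as well, 1 member was higher (17.3% of all genes) and 4 were lower (26.5%). The median log2 fold change was -0.88 over the 10 genes and -0.42 over all genes tested. When counts were scaled by library totals alone in place of TMM, a scaling that leaves out the genes with extreme ratios, the all-gene median moved up by 0.41 to -0.01; a fold change below is therefore also given relative to the all-gene median where it is small. The 3 genes called higher stayed higher under both scalings. Higher and lower here refer to recovery in the p-UPF1 IP relative to input, and not to a change of expression.

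**Figure D1:**
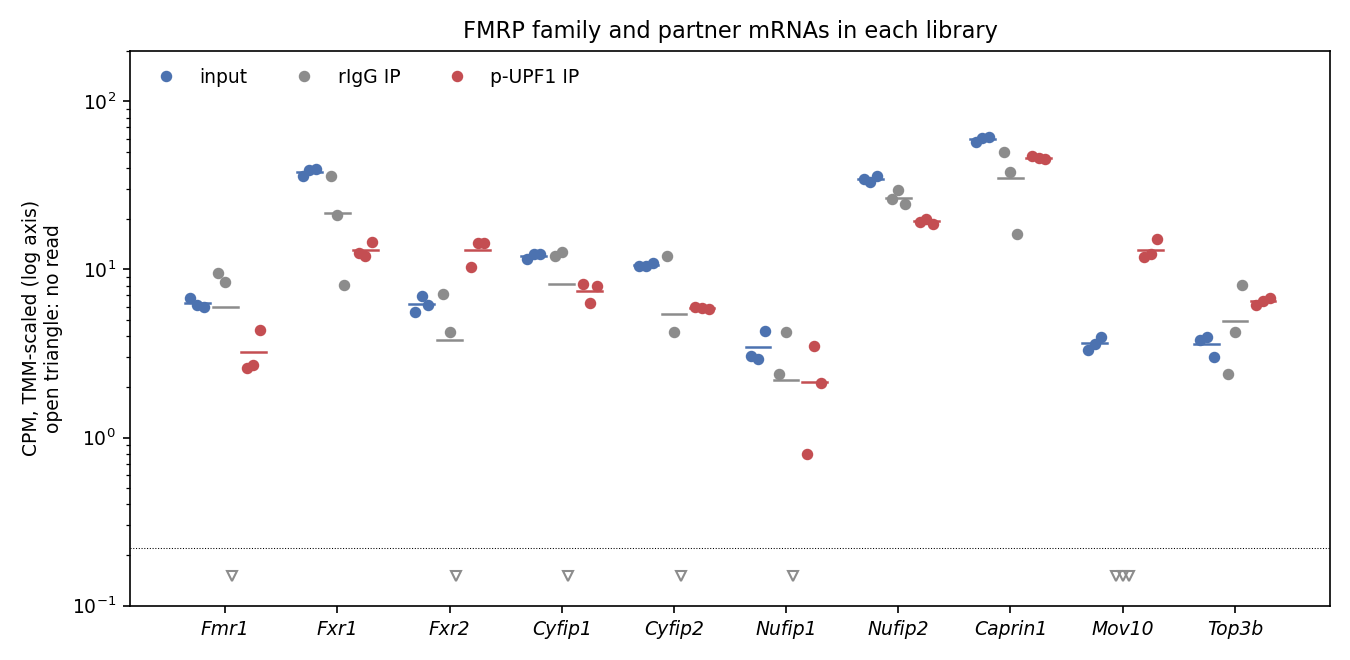
Level of each of the 10 mRNAs in each library, in CPM scaled by TMM on a log axis; points are libraries, short lines are group means and open triangles mark libraries with no read. Mov10 had no read in any rIgG IP library and 11.9 to 15.1 CPM in the p-UPF1 IP.

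Fmr1 itself (ENSMUSG00000000838.17, chrX:68678541-68717963 in GRCm38, plus strand) was lower in the p-UPF1 IP. Its counts were 154, 135 and 150 in input, 13, 17 and 27 in the p-UPF1 IP and 4, 2 and 0 in the rIgG IP. In TMM-scaled CPM these were 6.72, 6.11 and 6.00 in input against 2.58, 2.7 and 4.38 in the p-UPF1 IP. The groups did not overlap, and the third p-UPF1 IP library lay closest to input. The log2 fold change was -1.15 ± 0.20 (SE; adjusted p = 0.000504 by edgeR, n = 3 per group), or -0.74 relative to the median of all genes. Against the rIgG IP the difference was -1.21 ± 0.72 (adjusted p = 0.24 by edgeR), with a 95% interval of -2.68 to 0.27 that the 6 counts of the rIgG IP set. Gm27838, annotated as a miscellaneous RNA, overlaps Fmr1 exons on the same strand over 72 nt, and Fmr1 transcripts share 239 windows of 35 nt with Dffa, so reads there can fall to either gene.

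The paralog Fxr1 (ENSMUSG00000027680.15, chr3:34019943-34070322, plus strand), which encodes an RNA-binding protein also important in muscle, fell furthest of the 10. Its counts were 829, 857 and 990 in input, 63, 76 and 90 in the p-UPF1 IP and 15, 5 and 1 in the rIgG IP. As TMM-scaled CPM, input held 36.2, 38.8 and 39.6 and the p-UPF1 IP 12.5, 12.1 and 14.6. Every p-UPF1 IP library lay below every input library, and the log2 fold change was -1.75 ± 0.10 (adjusted p = 1.15e-07 by edgeR), at percentile 24.1 of all genes tested. The rIgG IP libraries were spread from 8.13 to 35.9 CPM, and p-UPF1 IP against rIgG IP gave -1.01 ± 0.39 (adjusted p = 0.0595 by edgeR). That value passed the threshold under 5 alternative fits and when the third rIgG IP or the third p-UPF1 IP library was left out (adjusted p = 0.0226 and 0.0388 by edgeR). Without the first rIgG IP library, which held 15 of its 21 rIgG IP counts, the difference shrank to -0.35 (adjusted p = 0.688 by edgeR).

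Fxr2 (ENSMUSG00000018765.5, chr11:69632990-69653297, plus strand), the other paralog, moved the opposite way. Counts were 128, 153 and 154 in input, 52, 91 and 89 in the p-UPF1 IP and 3, 1 and 0 in the rIgG IP. Scaled by TMM, input ranged from 5.59 to 6.93 CPM and the p-UPF1 IP from 10.3 to 14.4 CPM, with no overlap. The log2 fold change was 0.88 ± 0.15 (adjusted p = 0.000454 by edgeR). Over the rIgG IP it was 1.37 ± 0.65 (adjusted p = 0.129 by edgeR), so the 4 rIgG IP counts did not set it apart.

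Ratios taken inside a library need no scaling between libraries, and they put the paralogs side by side. The ratio of Fxr2 to Fmr1 counts was 0.831, 1.13 and 1.03 in input, against 4.00, 5.35 and 3.30 in the p-UPF1 IP. Fxr2 and Fmr1 were thus close to equal in input reads, and Fxr2 was ahead in every p-UPF1 IP library; the log2 ratio rose by 2.06. For Fxr2 over Fxr1 the ratio was 0.154, 0.179 and 0.156 in input, against 0.825, 1.2 and 0.989 in the p-UPF1 IP, a log2 difference of 2.61. The ratio of Fxr1 to Fmr1 was 5.38, 6.35 and 6.60 in input, against 4.85, 4.47 and 3.33 in the p-UPF1 IP, a difference of -0.55. None of these 3 ratios overlapped between the groups. Each had an exact two-sided permutation p of 0.1, the smallest that 3 libraries against 3 can give (Benjamini-Hochberg adjusted p = 0.14 over the 7 ratios computed), so the design could not reach 0.05 for a ratio.

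CYFIP1 and CYFIP2 bind FMRP and also sit in the WAVE regulatory complex, which controls actin branching downstream of Rac1. Cyfip1 (ENSMUSG00000030447.15, chr7:55841745-55932602, plus strand) had 264, 273 and 310 counts in input, 41, 40 and 49 in the p-UPF1 IP and 5, 3 and 0 in the rIgG IP. Cyfip2 (ENSMUSG00000020340.16, chr11:46193850-46312859, minus strand) had 240, 232 and 273 in input, 30, 37 and 36 in the p-UPF1 IP and 5, 1 and 0 in the rIgG IP. In both cases the p-UPF1 IP libraries lay below the input libraries: 6.34 to 8.14 against 11.5 to 12.4 CPM for Cyfip1, and 5.84 to 5.96 against 10.5 to 10.9 CPM for Cyfip2. The log2 fold changes were -0.91 ± 0.12 (adjusted p = 5.99e-05) and -1.06 ± 0.11 (adjusted p = 1.06e-05, both by edgeR). The ratio of Cyfip1 to Cyfip2 counts overlapped, with 1.10, 1.18 and 1.14 in input, against 1.37, 1.08 and 1.36 in the p-UPF1 IP (log2 difference 0.15, exact permutation p = 0.4). Exons of Nipa2 lie on the opposite strand of Cyfip1 over up to 1316 nt; Nipa2 had 262 to 325 counts in an input library and 33 to 38 in a p-UPF1 IP library.

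NUFIP1 and NUFIP2 were both found as FMRP-interacting proteins and share that name, although they are unrelated in sequence; NUFIP1 is mainly nuclear and helps to assemble small nucleolar ribonucleoproteins. Nufip1 (ENSMUSG00000022009.1, chr14:76110891-76137379, plus strand) had 70, 65 and 108 counts in input, 4, 22 and 13 in the p-UPF1 IP and 1, 1 and 0 in the rIgG IP. Its p-UPF1 IP libraries ran from 0.794 to 3.49 CPM and overlapped input, at 2.94 to 4.32 CPM. Nufip1 was the only member not called, with a log2 fold change of -0.85 ± 0.36 (adjusted p = 0.0655 by edgeR). Without the second p-UPF1 IP library it was -1.37 (adjusted p = 0.016), and without the second input library -0.94 (adjusted p = 0.0455, both by edgeR). Without the first p-UPF1 IP library it was -0.46 (adjusted p = 0.212) and without the third input library -0.62 (adjusted p = 0.188, both by edgeR). DESeq2 called it (adjusted p = 0.0446), and edgeR did with filterByExpr or no filter; with library totals it was -0.43 (adjusted p = 0.337 by edgeR).

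Nufip2 (ENSMUSG00000037857.16, chr11:77686155-77741921, plus strand) was counted far more deeply, with 788, 736 and 895 in input, 97, 126 and 115 in the p-UPF1 IP and 11, 7 and 3 in the rIgG IP. The libraries lay at 33.3 to 35.8 CPM in input, 18.6 to 20.0 CPM in the p-UPF1 IP and 24.4 to 29.6 CPM in the rIgG IP. Input and p-UPF1 IP did not overlap; by library totals the rIgG IP, resting on 3 to 11 counts a library, ran from 23.2 to 38.0 CPM and overlapped input at 29.2 to 30.3 CPM. Against input the log2 fold change was -1.04 ± 0.08 (adjusted p = 1.28e-06 by edgeR). Against the rIgG IP it was -0.46 ± 0.33 and not called (adjusted p = 0.336 by edgeR).

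Caprin1 (ENSMUSG00000027184.14, chr2:103762941-103797649, minus strand) encodes an RNA-binding protein that partners G3BP1 in stress granules. Its counts were 1318, 1333 and 1543 in input, 237, 290 and 279 in the p-UPF1 IP and 21, 9 and 2 in the rIgG IP. In CPM, input lay at 57.5 to 61.7 and the p-UPF1 IP at 45.2 to 47.0, with no overlap. The log2 fold change was -0.58 ± 0.07 (adjusted p = 3.13e-05 by edgeR), but only -0.17 relative to the all-gene median. With library totals as the scaling it was -0.18 and no longer called (adjusted p = 0.0684 by edgeR). The within-library ratio of Caprin1 to Nufip2 was 1.67, 1.81 and 1.72 in input, against 2.44, 2.30 and 2.43 in the p-UPF1 IP, a log2 rise of 0.46 with no overlap (exact permutation p = 0.1).

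Mov10 (ENSMUSG00000002227.15, chr3:104794836-104818563, minus strand) encodes an RNA helicase that associates with FMRP, with Argonaute proteins and with UPF1. It had 76, 80 and 99 counts in input, 60, 78 and 93 in the p-UPF1 IP and none in the rIgG IP. A p-UPF1 IP library therefore held about as many Mov10 reads as an input library several times its size. TMM-scaled levels were 3.32, 3.62 and 3.96 CPM in input and 11.9, 12.4 and 15.1 CPM in the p-UPF1 IP, with no overlap. The log2 fold change was 1.65 ± 0.14 (adjusted p = 2.82e-06 by edgeR), at percentile 89.6 of all genes tested, and it ranged from 1.56 to 2.06 over all alternatives.

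Mov10 was also the 1 member called higher over the rIgG IP (adjusted p = 0.00225 by edgeR), where 17.9% of 12033 genes were called higher and 5.59% lower. With 231 counts in the p-UPF1 IP, pooled at 13.1 CPM of the library totals, and none of 758678 in the rIgG IP, it was at least 3.32-fold higher, taking 3 counts over the rIgG IP group as the floor. The input level of Mov10, pooled at 3.15 CPM, was itself under that floor of 3.95 CPM. The rIgG IP was thus too shallow to show Mov10 at its input abundance. The pseudogene Gm7357 shares much sequence with Mov10 but held at most 1 count in any library.

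Top3b (ENSMUSG00000022779.16, chr16:16870736-16892990, plus strand) encodes a topoisomerase that acts on RNA as well as DNA and reaches FMRP through TDRD3. Counts were 87, 87 and 75 in input, 31, 41 and 42 in the p-UPF1 IP and 1 in each rIgG IP library. Levels were 3.80, 3.94 and 3.00 CPM in input and 6.15, 6.50 and 6.81 CPM in the p-UPF1 IP, without overlap. The log2 fold change was 0.66 ± 0.16 (adjusted p = 0.00492 by edgeR), and over the rIgG IP it was 0.76 ± 0.73 (adjusted p = 0.478 by edgeR). The ratio of Mov10 to Top3b was 0.874, 0.920 and 1.32 in input, against 1.94, 1.90 and 2.21 in the p-UPF1 IP, a log2 difference of 0.98 (exact permutation p = 0.1).

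**Figure D2:**
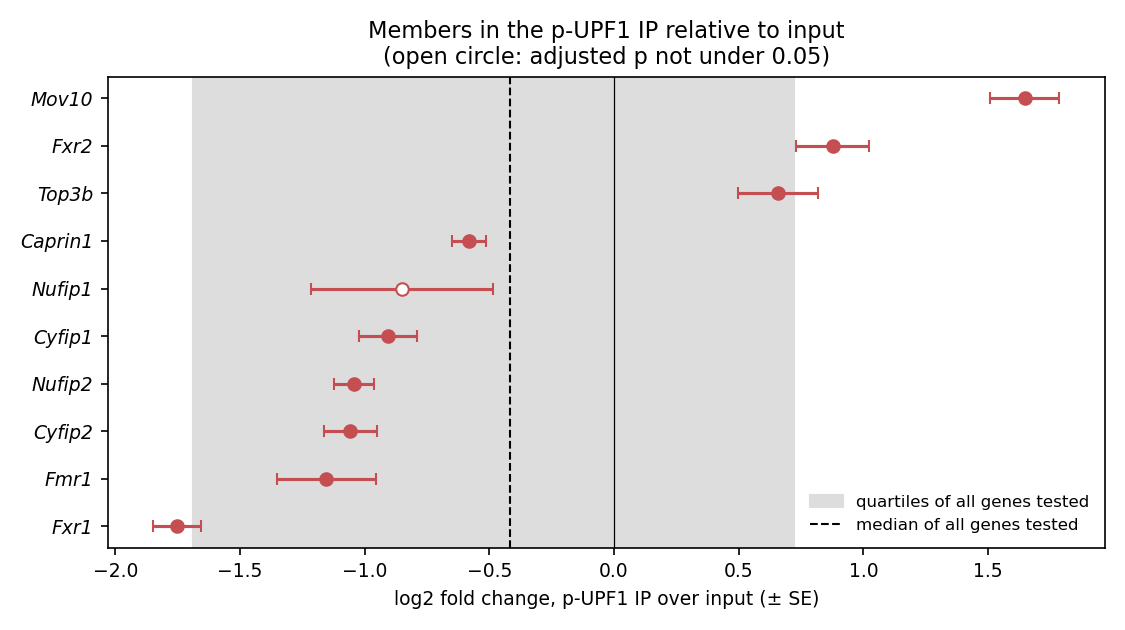
Log2 fold change of each of the 10 genes in the p-UPF1 IP over input, with SE bars, from 3 libraries per group. The dashed line is the median of all 16919 genes tested (-0.42), the grey band spans their quartiles (-1.69 to 0.72) and the open circle is Nufip1, the member not called; Mov10, Fxr2 and Top3b lie above 0.

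The other 9 genes were not called against the rIgG IP. Their log2 fold changes ran from -1.21 for Fmr1 to 1.37 for Fxr2, with a median over the 10 of -0.28 against 0.89 over all 12033 genes, and the median was the same with Mov10 at its bound. The all-gene median itself depended on the fit, from 0.25 with DESeq2 to 1.60 without the first rIgG IP library. The distance between the 2 medians was not tested. Fxr1 and Fxr2 had unadjusted p of 0.015 and 0.0438 (edgeR). For rIgG IP over input no member was called by edgeR or DESeq2, as against 0.897% of 16280 genes by edgeR. Of the members, 1 had an unadjusted p under 0.05 there, Mov10 (adjusted p = 0.29 by edgeR). Apart from Fxr1, Nufip2 and Caprin1, each member had at most 8 counts over all rIgG IP libraries, which limits these comparisons. Data simulated for rIgG IP over input had 200 of 15673 genes changed. Of those changed by a log2 of 2, 18% were recovered.

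The members above input in the p-UPF1 IP were the most GC-rich of the 10. Taking for each gene the transcript with the most input reads, Fmr1 (36.9% GC), Nufip2 (39.2%), Fxr1 (42.5%), Nufip1 (44.6%), Caprin1 (45.0%), Cyfip1 (49.1%) and Cyfip2 (51.8%) had log2 fold changes below 0 in the p-UPF1 IP over input. Top3b (52.6%), Mov10 (57.3%) and Fxr2 (58.5%), the 3 most GC-rich, were the 3 above 0. Over 16897 tested genes, 99.9% of all, Spearman's correlation of GC content with the log2 fold change was 0.36, and over the 10 members it was 0.78. With only genes whose transcript is protein coding, it was 0.41 over 11201 genes and 0.60 over 8 members, without Top3b (retained intron) and Mov10 (NMD type). The order also depends on the transcript taken, as Cyfip2 ENSMUST00000142017.1 has 54.3% GC. These are descriptions, since genes share libraries and base composition.

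Each member was also set beside genes of like GC content. The median log2 fold change rose from -1.58 in 1331 genes under 40% GC to 0.62 in 3021 genes at 56% GC or more. Fmr1 at -1.15 and Nufip2 at -1.04 lay above the median of their class, at its percentiles 62.1 and 64.7. Fxr2 at 0.88 was at percentile 58.0 of the class with the highest GC content, and Mov10 was at percentile 78.7 of the same class, 1.02 above its median. Fxr1 lay 0.61, Cyfip1 0.60 and Cyfip2 0.75 below the medians of their classes on the log2 scale. Relative to the median of all genes the distance was smaller for Cyfip1 (0.49 below), Cyfip2 (0.64 below) and Caprin1 (0.17 below, against 0.19 above its class), and larger for the other 7. The part of base composition in these values was not tested.

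**Figure D3:**
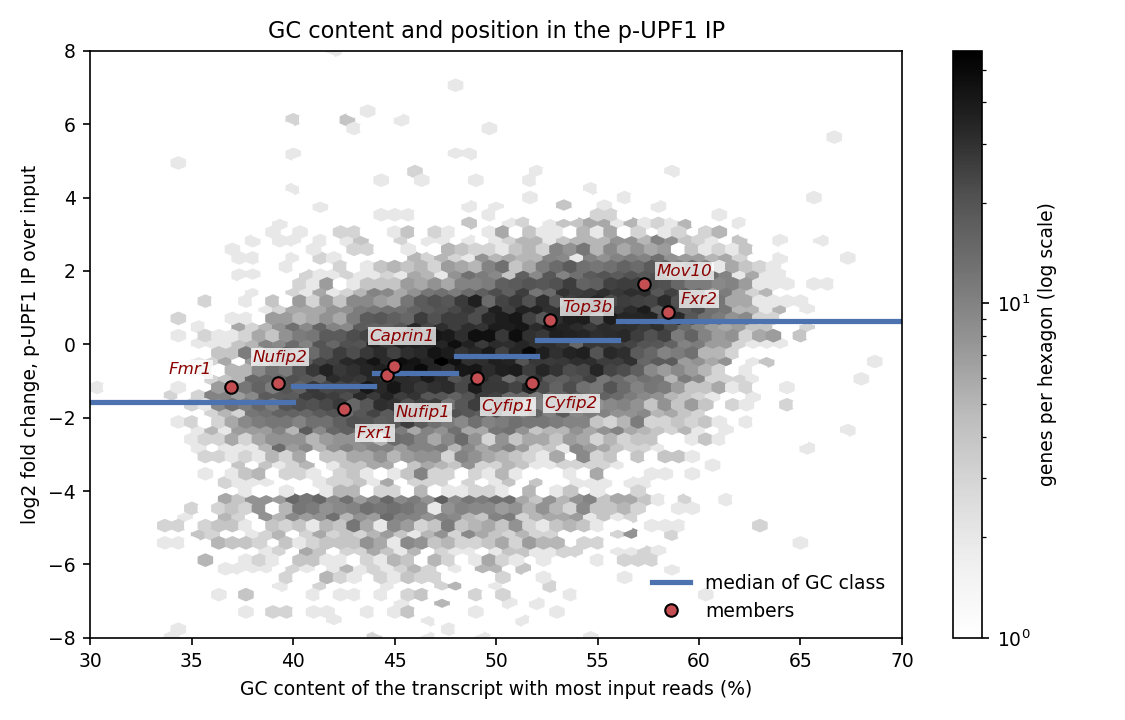
GC content of the most-read input transcript (percent, x axis) against the log2 fold change of p-UPF1 IP over input (y axis) for 16897 genes; grey hexagons count genes on a log scale, blue lines are medians of 6 GC classes, and red points are the 10 members. The axes leave out 191 genes; Top3b, Mov10 and Fxr2 lie at the GC-rich end.

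Genes that work with these proteins were counted from 3 lists, with the same background of 26.3% higher and 35.7% lower. Of 10 genes for the WAVE complex and Rac1, 9 could be tested, and 2 were higher, 6 lower and 1 was not called (median log2 fold change -1.50, p-UPF1 IP over input). The WASP-family members differed, with Wasf1 at -2.98 ± 0.13 (adjusted p = 1.8e-08) and Wasf2 at 0.85 ± 0.09 (adjusted p = 1.13e-05) and Wasf3 at 0.66 ± 0.12 (adjusted p = 0.00081) by edgeR. Wasf1 had 369, 342 and 388 counts in input, against 10, 15 and 15 in the p-UPF1 IP. Rac1, the GTPase that activates the complex, stood at -2.49 ± 0.09 (adjusted p = 5.14e-09 by edgeR). The genes named in this paragraph and the next were picked after their values were seen.

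Of 18 genes for other proteins of FMRP-containing particles and stress granules, 3 were higher, 11 lower and 4 not called (median -0.53). The 3 were Usp10, at 1.19 ± 0.08 (adjusted p = 4.5e-07), and with smaller values Atxn2l (0.34 ± 0.06) and G3bp1 (0.28 ± 0.07, both by edgeR). Pura, a single-stranded nucleic acid binding protein found in RNA granules, was the lowest at -2.7 ± 0.14 (adjusted p = 7.21e-08 by edgeR). Of 10 genes for microRNA silencing, TDRD3 and UPF1, 3 were higher, 5 lower and 2 not called (median -0.20). Dicer1 (0.90 ± 0.08) and Ago1 (0.84 ± 0.11) were among the higher, and Upf1 itself was at 2.09 ± 0.07 (adjusted p = 3.87e-09 by edgeR), with 353, 364 and 394 counts in input, against 388, 499 and 479 in the p-UPF1 IP. With library totals as the scaling, Tia1, Ubap2l and Tnrc6a, called lower above, turned to between 0.02 and 0.06 and were not called, and the higher and lower counts became 2 and 5, 6 and 8, and 4 and 2 in the order of the lists, while over all genes the shares became 33.7% higher and 25.8% lower. Against the rIgG IP, 1, 5 and 2 genes of the 3 lists were higher and 2, 3 and 0 lower, beside 17.9% higher and 5.59% lower of all genes.

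Fmr1 is a gene of low count, and 4955 genes had a mean input level within 2 times its own. Among these, the profile of log2(CPM + 1) over the 9 libraries was closest to Fmr1 for Snrpa (Pearson's r = 0.995), Mrps6 (0.985) and Bicd1 (0.985). The points share 3 groups and the shallow rIgG IP libraries, so a high value largely restates the group pattern.

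At the level of single transcripts, 49 of the 94 could be tested for p-UPF1 IP over input, and 3 were called higher and 11 lower, against 9.44% higher and 17.2% lower of 42616 transcripts in the table. Over the rIgG IP, 27 were tested and 3 were called higher (12.7% of 23034). For rIgG IP over input, none of 43 was called by edgeR, as none was in the whole table (0% of 36312), while 15 had an unadjusted p under 0.05 and DESeq2 called 3. A read of 35 nt rarely identifies its transcript: windows of that length that occur in a single annotated transcript made up 0.0% to 3.2% of the most-read transcripts of Fmr1, Fxr1, Cyfip1, Cyfip2, Mov10, Top3b and Caprin1, and 47.0%, 59.1% and 99.5% of those of Fxr2, Nufip2 and Nufip1. What follows describes how Salmon divided the reads, and the gene sums above do not depend on the division within a gene. A count of 0 can come from that division. Fmr1 ENSMUST00000088546.11, for example, had 0, 0 and 111 counts in the input libraries. Folds given below as at least a value cover counting error only, and are not bounds on the change of a transcript.

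Fxr1 showed the widest change of assignment. Its most-read input transcript, ENSMUST00000197694.4, holds an exon of 92 nt near the end of the reading frame that ENSMUST00000167354.7 and ENSMUST00000200392.4 lack, and because 92 nt is not a whole number of codons, the frame after the junction ends at another stop. From the GENCODE M21 models, the exon (chr3:34068161-34068252, GRCm38, plus strand) and the 17 nt after it (chr3:34068917-34068933), which close the frame where the exon is skipped, are shown with that stop codon in capitals.
Fxr1 exon: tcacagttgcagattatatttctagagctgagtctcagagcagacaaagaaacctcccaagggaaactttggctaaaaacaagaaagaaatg
Fxr1 frame end without the exon: gcaaaagatgtgatTGA

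Transcripts with this exon took 699 of 829, 728 of 857 and 819 of 990 Fxr1 counts in input, a mean of 84.0% ± 1.1. In the p-UPF1 IP they took 0 of 63, 5 of 76 and 8 of 90, or 5.2% ± 4.6. The rIgG IP gave them none of 15, 5 and 1 counts, so the share was low in both IPs. In place of it, ENSMUST00000167354.7 had no count in input, 41, 37 and 56 in the p-UPF1 IP and 14, 5 and 1 in the rIgG IP. By library totals its p-UPF1 IP level exceeded input at least 206-fold, with 3 counts over the input group as the floor (called, adjusted p = 0.00204 by edgeR). On the same floor its rIgG IP level exceeded input at least 712-fold (not called, adjusted p = 0.0558 by edgeR). It was thus not particular to the p-UPF1 IP, where its log2 fold change over the rIgG IP was -1.10 ± 0.49 (adjusted p = 0.207 by edgeR). ENSMUST00000197694.4 went from 622, 657 and 637 to 0, 5 and 8 (log2 fold change -5.74 ± 0.84, adjusted p = 0.00591 by edgeR). The transcript of annotated NMD type, ENSMUST00000200086.4, had 77, 68 and 179 counts in input and none in either IP, at least 23.4-fold lower in the p-UPF1 IP (adjusted p = 0.00804 by edgeR).

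Caprin1 reads moved towards a longer 3′ UTR. ENSMUST00000111147.7 and ENSMUST00000028607.12 have the same coding length of 2121 nt, with 3′ UTRs of 1784 and 3861 nt, and 34.7% of the 35-nt windows of the longer are its own. The longer took 42, 43 and 56 counts in input, against 72, 113 and 120 in the p-UPF1 IP, in which a library is several times smaller, and none in the rIgG IP. Its share of Caprin1 counts was 3.3% ± 0.2 in input and 37.5% ± 6.5 in the p-UPF1 IP, and its log2 fold change was 2.59 ± 0.20 (adjusted p = 0.000771 by edgeR). The shorter fell from 839, 825 and 1045 counts to 22, 25 and 14 (-3.96 ± 0.27, adjusted p = 0.000558 by edgeR), and held 20, 8 and 0 in the rIgG IP. Over the rIgG IP the longer was at least 4.38-fold higher, with 3 counts over the rIgG IP group as the floor (adjusted p = 0.025 by edgeR). Its mean input level, 1.73 CPM of the library total, was under that floor of 3.95 CPM. The rIgG IP was thus too shallow to show this transcript at its input abundance. The call was kept under all alternatives but those that left out a p-UPF1 IP library (adjusted p = 0.111 to 0.116 by edgeR). In these fits only 1 to 2 transcripts of the whole table were called, so calls in this comparison depended on having every p-UPF1 IP library.

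For Nufip2 the direction was alike and for Cyfip1 it was opposite. Nufip2 has a transcript with a 3′ UTR of 3009 nt, ENSMUST00000100802.10, and another with 132 nt, ENSMUST00000181023.1. The longer took 70.8% ± 2.2 of counts in input and 99.4% ± 0.5 in the p-UPF1 IP; the shorter had 247, 202 and 244 counts in input and none in the p-UPF1 IP, at least 50.1-fold lower (adjusted p = 0.000955 by edgeR). The rIgG IP gave the longer 9 of 11, 7 of 7 and 3 of 3 counts.

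Cyfip1 holds a pair of exons of which a full-length transcript carries either, of 154 nt (chr7:55898238-55898391) in ENSMUST00000032629.15, whose 3′ UTR is 2443 nt, and of 148 nt (chr7:55897825-55897972) in ENSMUST00000085255.10, whose 3′ UTR is 339 nt. Both are shown 5′ to 3′ on the plus strand (GRCm38, GENCODE M21) because the 2 forms differ there. The counts given below are sums over all transcripts that hold the exon, and reads on the exon itself were not counted.
Cyfip1 exon of 154 nt: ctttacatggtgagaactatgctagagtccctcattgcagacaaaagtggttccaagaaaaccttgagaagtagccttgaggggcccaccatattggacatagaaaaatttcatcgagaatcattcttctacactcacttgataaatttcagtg
Cyfip1 exon of 148 nt: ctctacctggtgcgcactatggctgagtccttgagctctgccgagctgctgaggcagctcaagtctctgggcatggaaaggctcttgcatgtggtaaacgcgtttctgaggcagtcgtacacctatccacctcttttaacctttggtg

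Transcripts with the exon of 148 nt held 102, 100 and 128 counts in input, 38.9% ± 2.3 of the gene, and 41, 39 and 39 in the p-UPF1 IP, 92.4% ± 11.1. Those with the exon of 154 nt held 150, 133 and 146 in input, 50.9% ± 5.2, but only 1, 4 and 11 in the p-UPF1 IP, 11.6% ± 10.1. In the rIgG IP the first had none and the second 5, 1 and 0 of 5, 3 and 0 counts, which is the reverse of the p-UPF1 IP but rests on 8 reads. ENSMUST00000085255.10 was called higher over the rIgG IP (adjusted p = 0.0377 by edgeR, at least 1.62-fold with 3 counts over the group as the floor), a call that missed the threshold in 8 of the alternatives (adjusted p = 0.0549 to 0.382). Among them were the 3 fits without a p-UPF1 IP library, in which only 1 to 2 transcripts of the whole table were called. ENSMUST00000085255.10, at a mean of 3.64 CPM of the library total in input, was itself under the rIgG IP floor of 3.95 CPM there. Against input it was not called (0.12 ± 0.24, adjusted p = 0.72 by edgeR), but with library totals it was, at 0.83 (adjusted p = 0.0497 by edgeR).

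**Figure D4:**
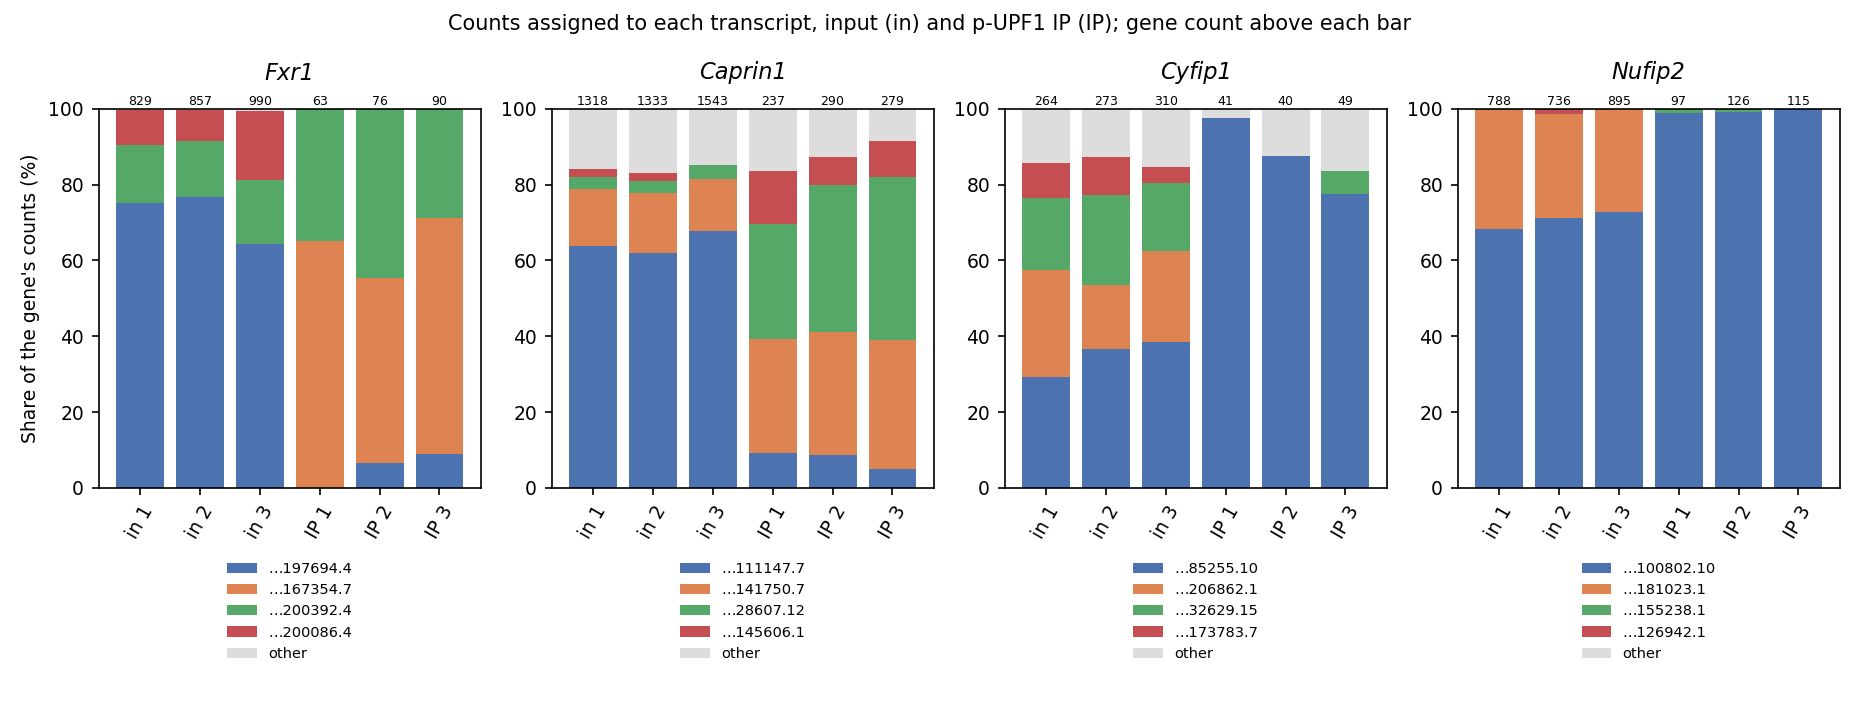
Share of the counts of Fxr1, Caprin1, Cyfip1 and Nufip2 (percent, y axis) assigned to each transcript in the 3 input and 3 p-UPF1 IP libraries; colours are transcripts by the last digits of their identifier, and the gene's count is printed above each bar. The leading Fxr1 and Caprin1 transcripts of input, at 64.3% to 76.7% and 61.9% to 67.7%, hold at most 8.89% and 9.28% in the p-UPF1 IP.

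The other called transcripts are given here. For p-UPF1 IP over input, Fxr1 ENSMUST00000200392.4 changed by -0.87 ± 0.21 (adjusted p = 0.0297), Caprin1 ENSMUST00000143349.7 by -2.76 ± 0.55 (adjusted p = 0.0166) and Nufip2 ENSMUST00000100802.10 by -0.86 ± 0.10 (adjusted p = 0.00272, all by edgeR). The all-transcript median was -0.95, so the first lay 0.074 and the last 0.089 above it, at percentiles 50.9 and 51.1. With library totals these values were -0.16 (adjusted p = 0.611) and -0.15 (adjusted p = 0.336, both by edgeR), and the first also lost its call with no filter, with all 9 libraries in 1 fit and without 5 of the 6 libraries in turn. Caprin1 ENSMUST00000143349.7 missed the threshold without the first input library, the third input library or the second p-UPF1 IP library (adjusted p = 0.0533 to 0.0568 by edgeR). Cyfip1 ENSMUST00000206862.1 had 75, 46 and 75 counts in input and none in either IP, at least 14.2-fold lower (adjusted p = 0.00619 by edgeR). Cyfip1 ENSMUST00000173783.7 and the retained-intron ENSMUST00000205656.1 were likewise at 0 in both IPs, at least 4.63-fold and 3.83-fold lower (adjusted p = 0.0289 and 0.0392 by edgeR). The former lost its call without any 1 of the input libraries (0.0676 to 0.1), and the latter with library totals (0.052), with no filter (0.064) and without 5 of the 6 libraries in turn. Cyfip2 ENSMUST00000142017.1 had 96, 79 and 108 counts in input and none in the p-UPF1 IP, at least 20.5-fold lower (adjusted p = 0.00297 by edgeR). Mov10 ENSMUST00000145414.1, a processed transcript, had 3, 3 and 6 counts in input, against 7, 9 and 7 in the p-UPF1 IP (2.40 ± 0.62, adjusted p = 0.04 by edgeR). That call was lost with no filter (adjusted p = 0.12), with all 9 libraries in 1 fit (0.0643) and whenever 1 of the 6 libraries was left out (0.0516 to 0.109, all by edgeR).

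None of the Fxr1, Caprin1, Nufip2 and Cyfip1 shares given above overlapped between input and p-UPF1 IP, and each had an exact two-sided permutation p of 0.1, the smallest possible. Nufip1 has a single transcript, and Fxr2 reads lay mostly on ENSMUST00000018909.3 in every input and p-UPF1 IP library. For Fmr1, Cyfip2 and Mov10, and for a part of the Top3b reads, the assignment jumped between libraries of the same group. In input, Fmr1 reads went to ENSMUST00000114655.7 in the first and second library (102 and 114 counts, 0 in the third) and to ENSMUST00000088546.11 in the third (111 counts, 0 in the others), while the gene's sum stayed at 135 to 154. Cyfip2 reads of the p-UPF1 IP lay on ENSMUST00000165599.8 in the first library (30 counts) and on ENSMUST00000093166.10 in the others (37 and 36). With shifts of this size between libraries of 1 group, no difference in transcript use was read for Fmr1, Cyfip2, Mov10 or Top3b. The calls given above for Cyfip2 ENSMUST00000142017.1 and Mov10 ENSMUST00000145414.1 fall under the same limit.

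Mov10 is the clearest case, and it is the member whose transcripts bear most on NMD. In ENSMUST00000106774.7, of annotated NMD type, the frame meets a stop after 57 codons, with the last exon junction 3102 nt downstream. The coding frame of ENSMUST00000166979.7 runs for 1077 codons, and both agree over their first 170 nt, start codon included. The coding ENSMUST00000168015.7 has a shorter coding length (3012 against 3231 nt), and its frame was not compared. The short frame (chr3:104818353-104818526, GRCm38, minus strand) is shown 5′ to 3′ with its start and stop codons in capitals.
Mov10 frame of 174 nt: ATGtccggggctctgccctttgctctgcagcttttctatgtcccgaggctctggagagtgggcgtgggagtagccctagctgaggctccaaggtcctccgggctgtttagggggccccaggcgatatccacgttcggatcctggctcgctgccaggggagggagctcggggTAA

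This transcript was given 52 of 60, 57 of 78 and 66 of 93 Mov10 counts in the p-UPF1 IP. In input it was given 0 of 76, 44 of 80 and 92 of 99, and the coding ENSMUST00000168015.7 took 65, 32 and 0. Its share was 49.3% ± 46.7 in input and 76.9% ± 8.5 in the p-UPF1 IP, and the groups overlapped (exact permutation p = 0.5). Only 2.3% of its 35-nt windows are its own, against 0.0% for ENSMUST00000168015.7. It was called higher over the rIgG IP (adjusted p = 0.0284 by edgeR, at least 2.52-fold with 3 counts over the group as the floor), and not over input (1.89 ± 1.36, adjusted p = 0.325 by edgeR). The call over the rIgG IP was lost with all 9 libraries in 1 fit (adjusted p = 0.383 by edgeR). It was also lost without any 1 of the p-UPF1 IP libraries, fits in which only 1 to 2 transcripts of the whole table were called. The mean input level of this transcript, 1.61 CPM of the library total, was under the rIgG IP floor of 3.95 CPM. The summed level of Mov10 was above every input library in each p-UPF1 IP library, and which of its transcripts carried the reads cannot be told apart with these windows.

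**Figure D5:**
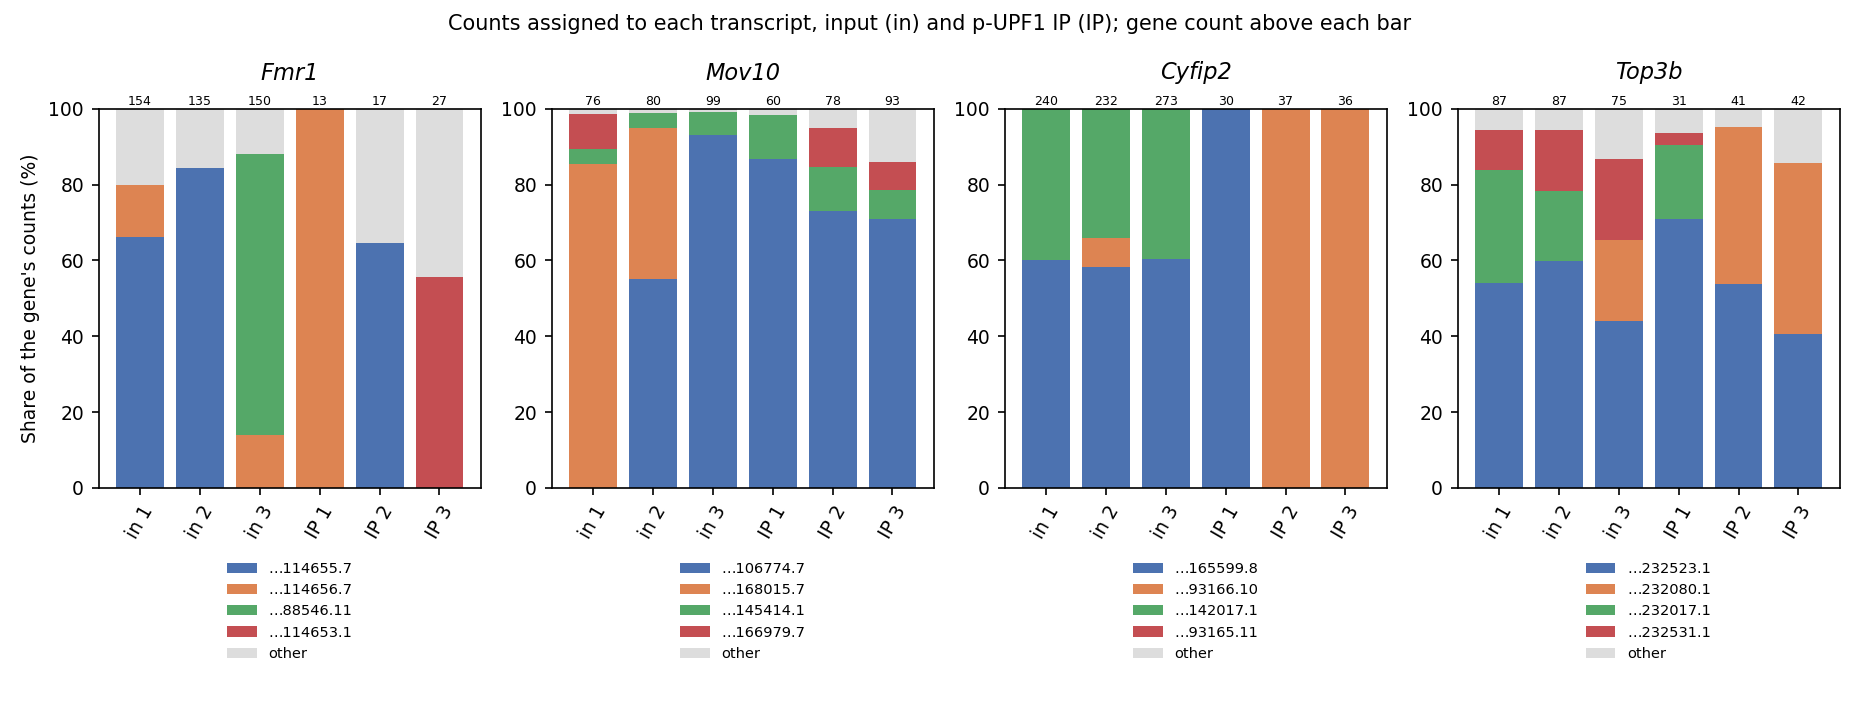
Share of the counts of Fmr1, Mov10, Cyfip2 and Top3b (percent, y axis) assigned to each transcript in the 3 input and 3 p-UPF1 IP libraries, drawn as for the other genes, with the gene's count above each bar. Bars of the same group differ among themselves: the Mov10 transcript of NMD type holds 0% to 92.9% of the input reads and 71.0% to 86.7% of the p-UPF1 IP reads.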

How the data were processed

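RIP-seq of N2A cells gave 9 libraries in 3 groups, which were assigned from the sample labels. The authors trimmed reads (at least 35 nt kept), mapped them with STAR 2.7.0f to GRCm38 and quantified transcripts with Salmon 0.13.1; they deposited estimated counts per transcript, given as whole numbers with no scaling for depth. Counts were used as deposited and summed by gene symbol.

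Each pair of groups was compared over all features with edgeR 4.0.16 in R 4.3.3 (TMM, summed count of at least 10 in the 6 libraries, quasi-likelihood test, Benjamini-Hochberg adjusted p under 0.05). Each result was recomputed with DESeq2 1.42.0, with library totals or RLE factors for scaling, with filterByExpr or no filter, with all 9 libraries in 1 fit, with a replicate block, with a log2 fold change threshold of 1 and without each library. SE is the absolute log2 fold change over the root of F. Ratios and shares were tested by exact two-sided permutation (scipy 1.17.1). Floors use 3 counts and cover counting error only, and not the division of reads among transcripts.

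The members and lists were chosen with earlier results of these data known. All members are described, with the most-read input transcript of each and every transcript called. Coordinates, types and sequences are of GENCODE M21 (GRCm38; 139921 transcripts matched by identifier and version, all 94 of the members); the study used release M22, so a model may differ. Nothing in the labels says that libraries are separate cultures, so p-values measure the spread between libraries, which may be technical. No pair of libraries in a group agreed within sampling noise (chi-square 3.62 to 15.6 times its degrees of freedom). On data simulated for p-UPF1 IP over input (16372 genes), 70% of genes changed by a log2 of 2 were recovered and 5.92% of calls were false; for p-UPF1 IP over rIgG IP (11714 genes) these were 31% and 16.8%. For transcripts recovery was 0% at a log2 of 2 in both comparisons and 1% and 8% at a log2 of 3, with 0% and 27.3% of calls false. Each simulation changed only 200 features. In the data a far larger share was called for p-UPF1 IP over input (26.3% and 35.7% of genes, 9.44% and 17.2% of transcripts, higher and lower). The adjusted p is stricter where few features change, so these rates need not be those of the tests above.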

Additional observations from a re-analysis of the deposited data

How the results depend on the processing

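For p-UPF1 IP over input, 9 genes were called and 8 to 10 under the other normalizations, filters and tools; 5 had a log2 fold change past 1 as well. For p-UPF1 IP over rIgG IP, 1 gene was called, and 2 with DESeq2, RLE factors, library totals, filterByExpr or all 9 libraries in 1 fit, the added one being Fxr1. Leaving out 1 library gave 9 to 10 and 1 to 2 genes. For rIgG IP over input the count was 0 throughout.

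Transcript calls moved more. For p-UPF1 IP over input, 14 were called and 9 to 15 when 1 library was left out. For p-UPF1 IP over rIgG IP, 3 were called, 5 with DESeq2, 8 with filterByExpr and 0 to 5 when 1 library was left out: 0 without any 1 of the p-UPF1 IP libraries and 5 without the third rIgG IP library. The whole table moved with them, with 44.5% of transcripts higher under filterByExpr and only 1 to 2 called without a p-UPF1 IP library. For rIgG IP over input, where 0 were called, DESeq2 gave 3, filterByExpr 5, all 9 libraries in 1 fit 3, and leaving out 1 library 0 to 5.

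Replicate numbers did not pair the libraries: correlations of deviations from the group means were -0.03 to 0.05. With the replicate number as a block, 10 genes were called for p-UPF1 IP over input, among them Nufip1 (adjusted p = 0.0222 by edgeR). For p-UPF1 IP over rIgG IP 1 was called, and for rIgG IP over input 0. The block gave 2, 1 and 2 transcripts in the same order. Of the 14 transcripts called over input, 12 lost the call with the block, in the same direction (adjusted p = 0.0526 to 0.285 by edgeR); Caprin1 ENSMUST00000111147.7 and ENSMUST00000028607.12 kept it. Over the rIgG IP, Cyfip1 ENSMUST00000085255.10 and Mov10 ENSMUST00000106774.7 lost theirs (0.382 and 0.208).

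Reversals fell on values that were not called in the first place. For p-UPF1 IP over rIgG IP, Caprin1 turned to -0.079 with DESeq2, -0.082 with RLE factors and -0.16 with filterByExpr, and ranged from -0.065 to 0.59 with 1 library left out. With 1 library left out, Cyfip2 ranged from -0.71 to 1.07, positive without the first rIgG IP library, and Nufip1 from -0.77 to 0.21, positive without the second rIgG IP library or, at 0.14, the first p-UPF1 IP library. For rIgG IP over input, Fxr2 turned to 0.040 with DESeq2 and 0.038 with RLE factors, and Cyfip1 to 0.083, 0.080 and, with library totals, 0.011. With 1 library left out, Cyfip1 reached -0.49 to 0.038, Fmr1 -0.13 to 0.57 and Top3b -0.20 to 0.69.

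Among transcripts over the rIgG IP, Nufip1 ENSMUST00000022586.1 turned to -0.28 (DESeq2), -0.20 (RLE factors), -0.43 (all 9 libraries in 1 fit) and -0.32 (library totals), and ranged from -0.28 to 0.80 with 1 library left out. Nufip2 ENSMUST00000100802.10 turned to -0.34, -0.36, -0.57 and -0.58 under the first 4 of these and -0.19 with filterByExpr. Caprin1 ENSMUST00000143349.7 turned to -0.49, -0.039, -0.39 and -0.11, and ranged from -0.15 to 4.97 with 1 library left out. With DESeq2, Fmr1 ENSMUST00000114655.7 turned to -0.46 and Fxr1 ENSMUST00000197694.4 to -0.17. For rIgG IP over input, Nufip2 ENSMUST00000100802.10 turned to 0.13 with DESeq2, 0.18 with RLE factors and 0.44 with library totals, and Cyfip1 ENSMUST00000205656.1 and Mov10 ENSMUST00000145414.1 to 0.25 and 2.39 with DESeq2. Against input, Cyfip1 ENSMUST00000085255.10 ranged from -0.0024 to 0.28 with 1 library left out. The cause was not tested.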
